A study of Mus musculus with 32 samples.

Results

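The replication-dependent histone genes encode the linker histone H1 and the core histones H2A, H2B, H3 and H4, around which newly made DNA is wrapped. They were taken here as the genes whose symbol starts with Hist1h, Hist2h, Hist3h or Hist4h, which gave 67 of the 39017 genes in the deposited count table. By their symbols 5 of these 67 genes belong to H1, 19 to H2A, 18 to H2B, 12 to H3 and 13 to H4. Hist1h2al, counted with H2A, is annotated as a processed pseudogene at chr13:51202727-51203065, away from the other placed Hist1 genes. Hist2h2bb, counted with H2B, is annotated as a long noncoding RNA. The Hist1 cluster lies on chromosome 13 (47 genes with a position), the Hist2 cluster on chromosome 3 (10 genes), Hist3 genes on chromosome 11 (2 genes) and Hist4h4 on chromosome 6. The other 7 Hist1 genes were matched by symbol alone and carry no position here.

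RNA was sequenced from mouse embryonic fibroblasts (MEFs) of 4 lines: ATMko, which lacks ATM, and wtATM, wild type for it, then ATMINko, which lacks ATMIN, and wtATMIN, wild type for that gene. The kinase ATM signals DNA breaks, and ATMIN, named for its interaction with ATM, is one of its cofactors. Cells of each line were given 1 µM aphidicolin (APH), which blocks replicative DNA polymerases, or the solvent DMSO for 4 h or 24 h. The 16 groups hold 2 samples each, and the labels do not say whether these are separate cultures, so that p-values measure only the spread between samples. There is 1 line per genotype, and genotype and line cannot be told apart.

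Replication-dependent histone mRNAs are made in S phase, when DNA is copied, and are degraded quickly when DNA synthesis stops. Unlike other mRNAs they lack a poly(A) tail and end in a short stem-loop, which the stem-loop binding protein SLBP holds from processing to translation and decay. The coactivator NPAT drives their transcription, and the U7 small nuclear ribonucleoprotein guides the cut behind the stem-loop. The library kit named in the labels (TruSeq RNA version 2) selects poly(A) RNA, so the reads counted here come from whatever histone RNA passed that selection. Some of these genes are known in mammals to make polyadenylated mRNA as well, for example in cells that leave the cycle.

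The stem-loop is the sequence that sets this family apart, and a few 3′ ends are shown because their form differs between the histone types and because the annotated transcript runs past it in some genes. The motif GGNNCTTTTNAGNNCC was found in an annotated transcript of 42 of the 67 genes (62.7%) and of 27 of 21836 other protein-coding genes (0.124%). Only the longest annotated transcript of each gene was searched. Each window runs 5′ to 3′ on the transcript strand of GENCODE M21, with the 16-base stem-loop in capitals.
Hist1h1c (H1): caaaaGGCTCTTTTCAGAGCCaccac
Hist1h2ap (H2A): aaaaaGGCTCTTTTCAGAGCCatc
Hist3h2a (H2A): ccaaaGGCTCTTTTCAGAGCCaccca
Hist2h2ac (H2A): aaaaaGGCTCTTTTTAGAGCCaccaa
Hist1h2bk (H2B): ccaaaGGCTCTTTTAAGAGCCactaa
Hist2h3c2 (H3): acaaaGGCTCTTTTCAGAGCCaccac
Hist1h4i (H4): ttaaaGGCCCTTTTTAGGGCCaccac
Hist4h4 (H4): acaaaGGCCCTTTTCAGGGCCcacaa
Hist1h4b (H4): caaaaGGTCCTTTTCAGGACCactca

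The form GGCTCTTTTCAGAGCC was shared by 25 genes (3 of H1, 10 of H2A, 7 of H2B and 5 of H3). The 11 H4 genes with a match carried other stems, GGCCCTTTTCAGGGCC in 7 genes, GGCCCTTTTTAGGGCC in 2 and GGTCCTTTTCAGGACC in 2. The annotated transcript ended within 100 bases of the stem-loop in 21 genes, such as Hist1h2ap with 3 bases past it. It ran further in another 21 genes, by 840 bases in Hist1h1c, 1643 in Hist3h2a, 330 in Hist1h4i and 2445 in Hist4h4. No match lay in the annotated transcript of the other 25 genes, among them Hist1h2bc and Hist2h2be. This says only that these letters are absent from the longest annotated model, as shorter ones were not searched.

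Promoters of 61 of the 67 genes were found in RefSeq (GRCm38.p6, 250 bases before to 50 after the annotated start), and those of an H1, an H2A and an H4 gene whose levels are described in the results are shown here. Capitals mark matches, anywhere in the window and on either strand, to the octamer ATTTGCAT, the H1 box AAACACA, the TATA box letters TATAAA or CCAAT. The distance of a match from the annotated start was not used, so a TATAAA match need not be the TATA box of that gene.
Hist1h1c, chr13:23738557-23738856, + strand: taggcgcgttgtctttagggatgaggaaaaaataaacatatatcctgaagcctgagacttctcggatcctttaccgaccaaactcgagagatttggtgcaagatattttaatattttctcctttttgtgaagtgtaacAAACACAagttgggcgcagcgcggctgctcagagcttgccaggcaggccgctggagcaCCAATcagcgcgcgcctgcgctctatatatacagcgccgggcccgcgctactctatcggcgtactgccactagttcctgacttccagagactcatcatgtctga
Hist3h2a, chr11:58954435-58954734, + strand: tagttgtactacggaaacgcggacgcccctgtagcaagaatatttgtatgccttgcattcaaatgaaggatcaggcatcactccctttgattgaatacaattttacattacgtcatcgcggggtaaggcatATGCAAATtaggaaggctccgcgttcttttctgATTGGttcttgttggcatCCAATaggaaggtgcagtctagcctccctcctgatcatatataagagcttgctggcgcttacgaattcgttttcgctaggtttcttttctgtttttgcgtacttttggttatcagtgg
Hist1h4i, chr13:22041313-22041612, - strand: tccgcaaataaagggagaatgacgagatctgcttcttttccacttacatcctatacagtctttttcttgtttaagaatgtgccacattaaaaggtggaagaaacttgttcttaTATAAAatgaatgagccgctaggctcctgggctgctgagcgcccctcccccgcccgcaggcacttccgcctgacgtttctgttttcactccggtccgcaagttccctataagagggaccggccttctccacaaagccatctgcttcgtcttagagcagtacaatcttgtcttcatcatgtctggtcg

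The octamer stood in 7 of 18 H2A promoters and 6 of 16 H2B promoters, in none of the H1, H3 and H4 promoters, and in 1.75% of 27025 promoters. Some H2A and H2B windows overlap, such as those of Hist1h2aa and Hist1h2ba or of Hist1h2ae and Hist1h2bg. The same octamer is then counted for both types. The H1 box stood in 4 of 5 H1 promoters, against 7.14% of all promoters. CCAAT was present in all matched promoters of H1, H2A, H2B and H3 (5, 18, 16 and 10) but in 3 of 12 H4 promoters, and in 37.9% of all promoters. TATAAA was present in 4 of 5 H1, 11 of 18 H2A, 8 of 16 H2B, 4 of 10 H3 and 8 of 12 H4 promoters, and in 14.2% of all.

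The 67 genes took 90313 reads in all, between 0.002305% and 0.06289% of a library, and the libraries held 9321329 to 21020662 counts. After a filter on low counts 65 of them were tested among 18484 genes; Hist1h2aa and Hist3h2ba were not. Levels are given as CPM, counts scaled to a common library size. Paralogous members share sequence: in their longest annotated transcripts the median share of 50-base windows also present in another member was 2.2% for H1, 67.6% for H2A, 42.7% for H2B, 57.2% for H3 and 39.5% for H4. Values of single core histone genes are therefore uncertain as to which copy the reads came from.

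Library content differed in ways the design does not name. A list of RNAs without poly(A) tails (ribosomal sequence Gm42418, 7SL, 7SK, Rmrp, Rpph1 and small nuclear RNAs) summed to 14340 to 101500 CPM in the 16 libraries of 4 h and to 273.1 to 5903 CPM in those of 24 h. Replicate 1 of ATMko APH 4 h stood apart at 101500 CPM, while replicate 2 had 25810 CPM, within the range of the other 4 h libraries. The DMSO libraries of that line had 16070 and 15790 CPM, and 11 of the 16 tested RNAs of the list were called higher with APH there (background 14.0%). Replicate 1 of ATMko APH 4 h also held 230.3 CPM of members where replicate 2 held 103.5 CPM. Among the other 4 h libraries wtATM DMSO replicate 1 was highest, at 43470 CPM against 17430 CPM in its replicate 2. These 2 wtATM libraries held 689.7 and 562.7 CPM of members. Counts by histone type and the genes that turn on the ATMko APH 4 h libraries are given with and without each. The knocked-out genes were read as a check of the labels: Atmin lay at 3.77 to 6.77 CPM in ATMINko against 20.4 to 32.9 CPM in wtATMIN, and Atm at 17.8 to 45.5 CPM in ATMko against 43.1 to 65.1 CPM in wtATM. The Atm ranges overlapped, with 42.2 and 45.5 CPM in ATMko against 43.1 and 52.3 CPM in wtATM with APH at 24 h. Atm RNA therefore does not settle the ATM labels.

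**Figure D1:**
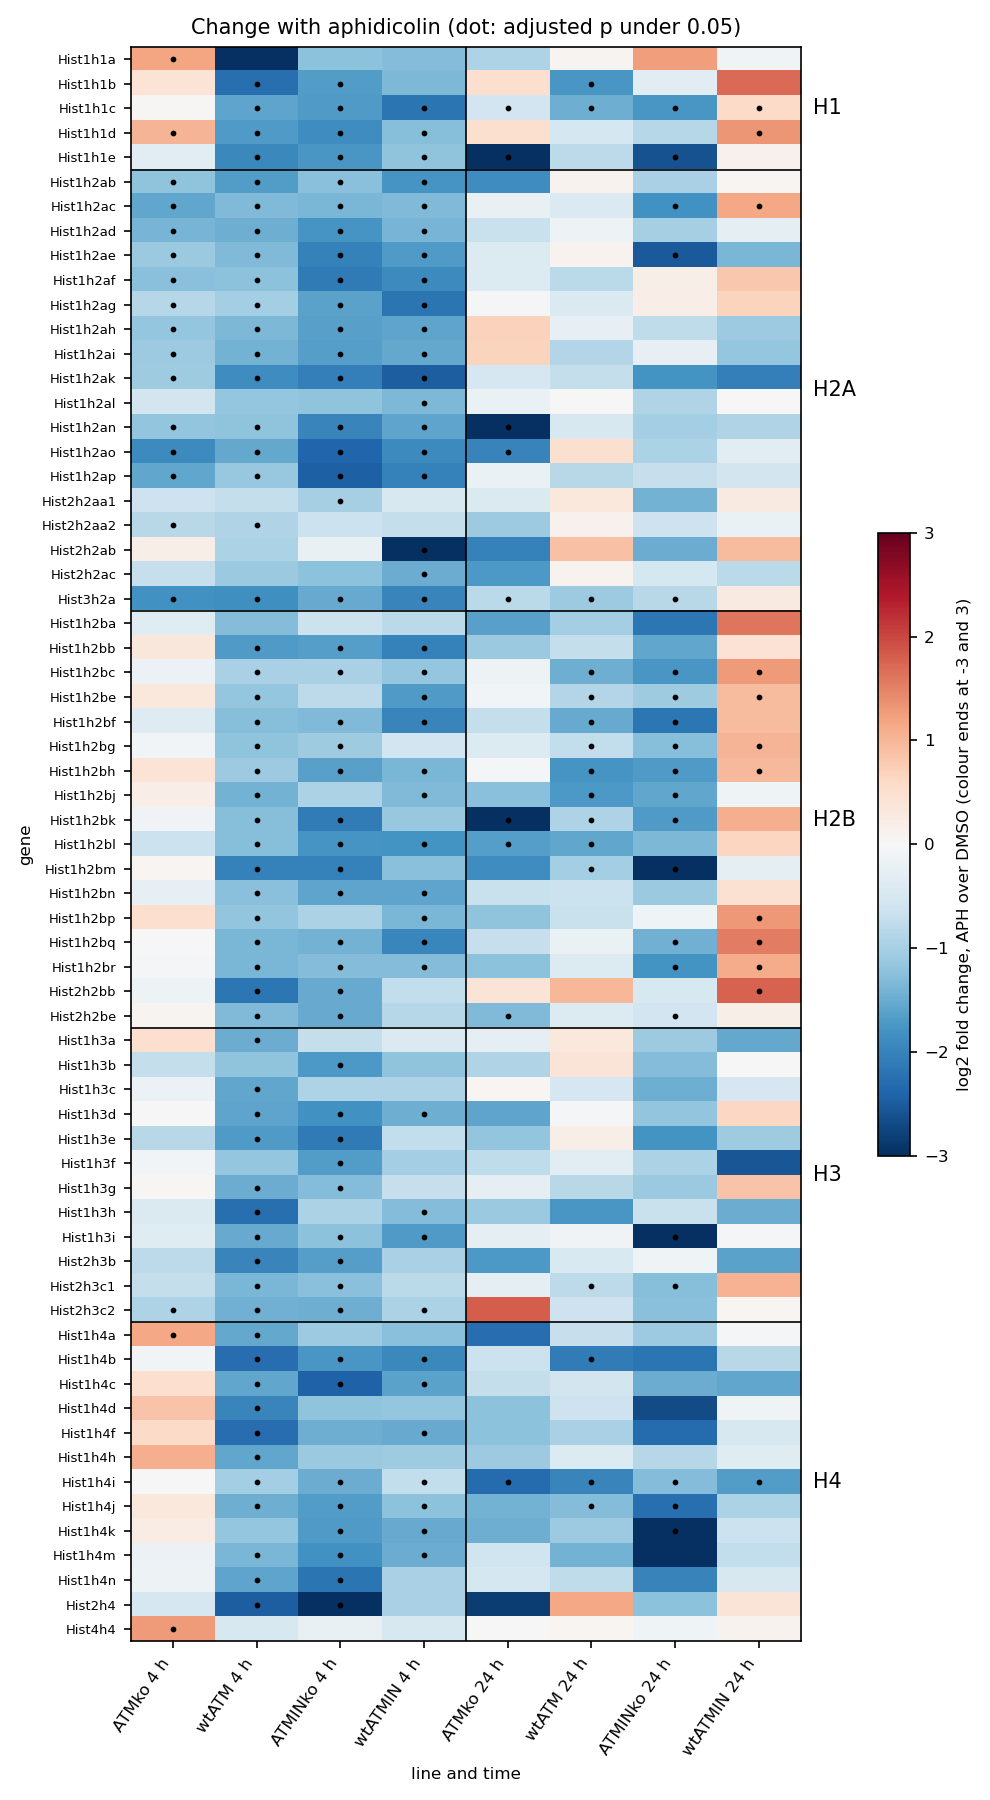
Log2 fold change of APH over DMSO for the 65 tested members (down the page, by histone type) in the 4 lines at 4 h and 24 h (columns), with colours ending at -3 and 3 and a dot where the adjusted p was under 0.05. At 4 h the wtATM, ATMINko and wtATMIN columns are blue for all 65 members, while in ATMko the dots sit mainly in the H2A block.

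After 4 h of APH most histone genes were called lower in wtATM, ATMINko and wtATMIN, and in ATMko mainly those of H2A were. By the quasi-likelihood test of edgeR (Benjamini-Hochberg adjusted), 55 of 65 tested members were called lower in wtATM, 48 in ATMINko, 41 in wtATMIN and 15 in ATMko. Of all genes tested 2.76%, 10.9%, 7.75% and 15.4% were called lower in the same comparisons. No member was called higher in wtATM, ATMINko and wtATMIN (background 2.82%, 9.48% and 7.25%) and 4 were in ATMko (background 14.0%). In either direction 5.58%, 20.4%, 15.0% and 29.4% of all genes were called. The median log2 change of the members was -1.41 in wtATM, -1.52 in ATMINko, -1.33 in wtATMIN and -0.17 in ATMko, where the median over all genes lay between -0.02 and 0.00. All 65 members lay below 0 in each of the 3 lines other than ATMko, and 41 did in ATMko. In such bulk samples fewer cells in S phase and less histone RNA per cell cannot be told apart.

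Summed over all 67 genes, member RNA stood at 230.3 and 103.5 CPM with APH against 224.9 and 264.1 CPM with DMSO in ATMko. In wtATM it stood at 240.8 and 239.6 CPM with APH against 689.7 and 562.7 CPM with DMSO. ATMINko gave 72.05 and 85.0 CPM with APH against 231.4 and 232.9 CPM with DMSO, and wtATMIN 75.75 and 66.8 CPM with APH against 169.6 and 193.1 CPM with DMSO. The APH and DMSO libraries did not overlap in 3 of the lines and overlapped in ATMko. Without 1 of the libraries the calls at 4 h were fewer or more: 26 in wtATM without DMSO replicate 1, 28 in ATMINko without APH replicate 1, 20, 22 and 23 in wtATMIN without DMSO replicate 2, APH replicate 1 or APH replicate 2, and 10 and 31 in ATMko without DMSO replicate 2 or APH replicate 1.

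**Figure D2:**
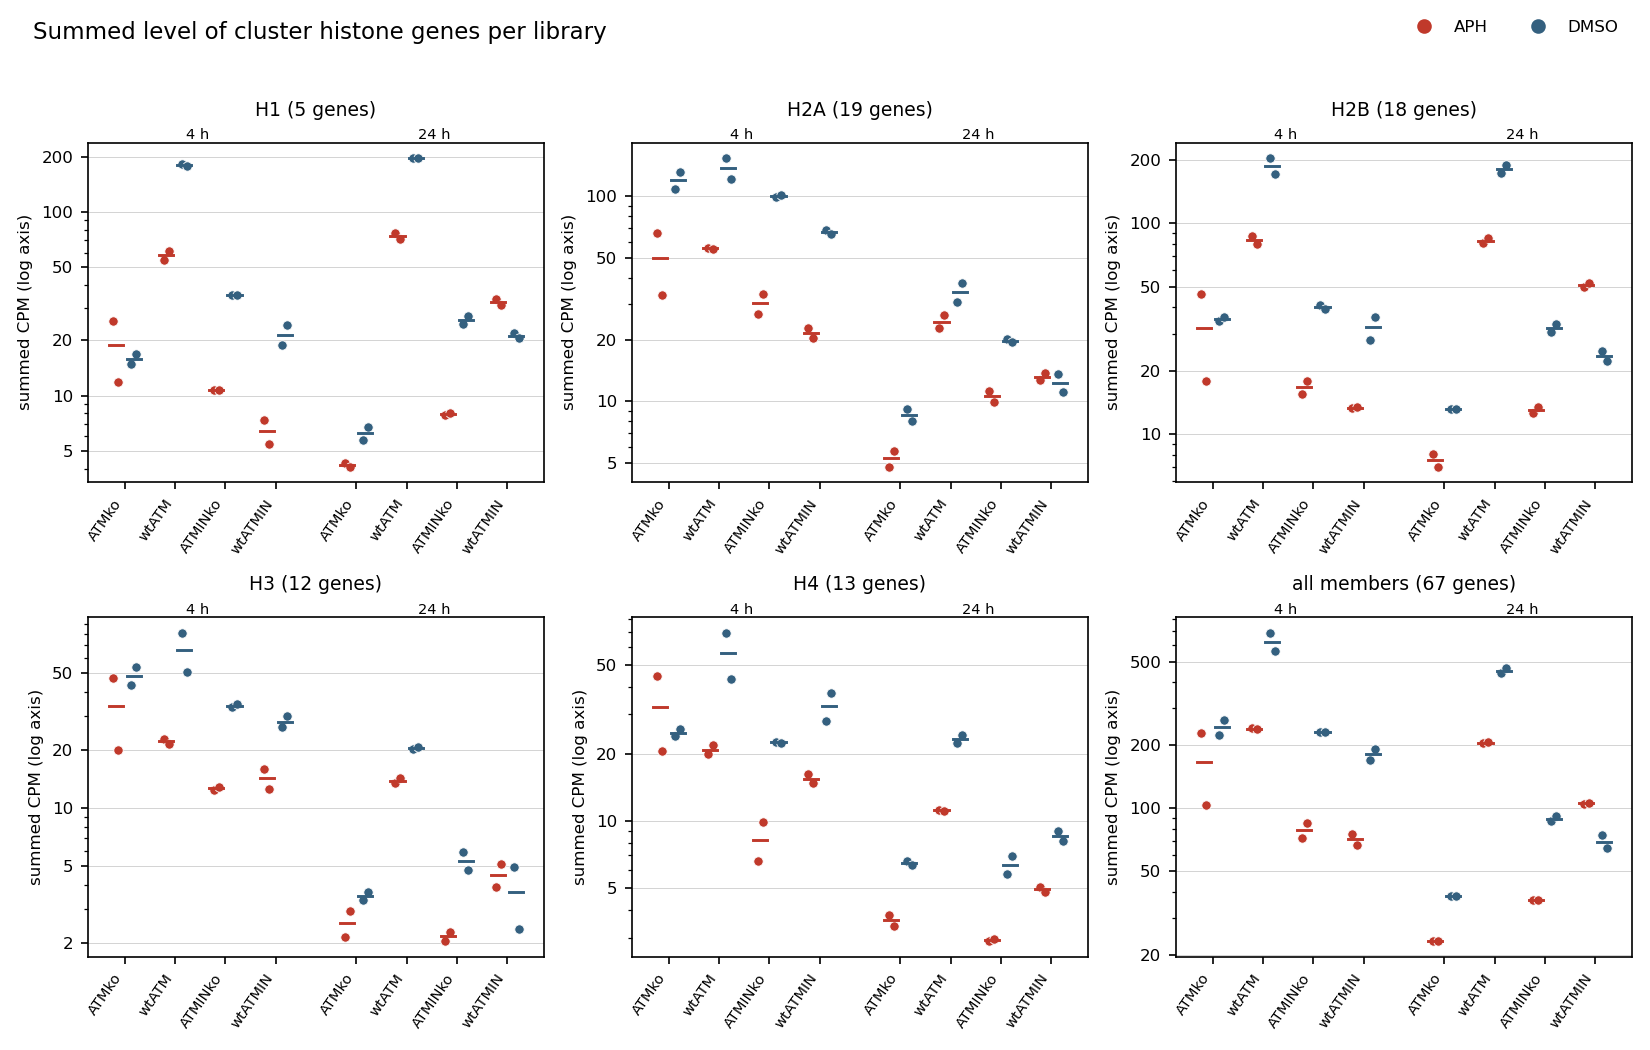
Summed CPM of each histone type (log axis) per library in the 4 lines at 4 h and 24 h; red points are APH, blue points DMSO and bars the mean of 2 libraries. In wtATM, ATMINko and wtATMIN the APH points of every type lie under the DMSO points at 4 h, and in ATMko they do so for H2A, with 66.46 and 33.18 CPM against 108.1 and 131.8 CPM.

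H1 genes code for the linker histone that binds DNA between nucleosomes. At 4 h 4 of 5 were called lower in wtATM, 4 in ATMINko and 3 in wtATMIN, with median log2 changes of -1.93, -1.70 and -1.29, while in ATMko none was lower, 2 were higher and the median was 0.41. Without ATMko APH replicate 1, 1 H1 gene was lower and none higher there (median -0.36), and without replicate 2 none was lower and 2 were higher (0.82). Hist1h1c (chr13:23738808-23740367, + strand) encodes an H1 subtype of dividing and resting cells. It had 6.42 and 3.90 CPM with APH against 4.10 and 6.32 CPM with DMSO in ATMko, a log2 change of 0.04 ± 0.21 (SE of the fit, adjusted p = 0.913 by edgeR). In wtATM it had 48.1 and 53.4 CPM with APH against 149 and 156 CPM with DMSO, a log2 change of -1.59 ± 0.10 (adjusted p = 8.74e-14 by edgeR). In ATMINko it had 8.26 and 7.56 CPM against 25.4 and 26.2 CPM (-1.70 ± 0.14), and in wtATMIN 3.16 and 2.59 CPM against 10.9 and 15.0 CPM (-2.18 ± 0.18), in both cases APH before DMSO. The APH libraries lay under the DMSO libraries in these 3 lines and overlapped them in ATMko. Hist1h1d, another linker histone, was higher with APH in ATMko, with 6.34 and 2.67 CPM against 2.05 and 2.60 CPM with DMSO (log2 1.02 ± 0.29, adjusted p = 0.00729 by edgeR). Without APH replicate 1 its change was 0.19 and did not pass (adjusted p = 0.745 by edgeR), and without replicate 2 it was 1.45 (adjusted p = 0.00033 by edgeR). It was lower in wtATM, with 3.18 and 3.56 CPM with APH against 12.8 and 9.40 CPM with DMSO (log2 -1.71 ± 0.24).

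H2A, which pairs with H2B in the nucleosome, had most of its genes called lower in each of the 4 lines. Every H2A member overlaps an annotated gene on the other strand, while few members of the other types do. The strand setting of the counting is not given, so reads of such overlapping genes cannot be told from those of H2A. Their part in the difference between types was not tested. Of 18 tested H2A genes 14 were lower with APH in ATMko, 14 in wtATM, 14 in ATMINko and 16 in wtATMIN, with median log2 changes of -1.13, -1.27, -1.62 and -1.65. Of the 14 members lower in all 4 lines at 4 h, 13 encode H2A (Hist1h2ab, Hist1h2ac, Hist1h2ad, Hist1h2ae, Hist1h2af, Hist1h2ag, Hist1h2ah, Hist1h2ai, Hist1h2ak, Hist1h2an, Hist1h2ao, Hist1h2ap and Hist3h2a) and 1 encodes H3 (Hist2h3c2). The share of all genes lower in all 4 lines was not counted. Hist3h2a (chr11:58954685-58956830, + strand) overlaps Trim17 on the same strand. It had 1.67 and 1.45 CPM with APH against 4.91 and 6.19 CPM with DMSO in ATMko (log2 -1.81 ± 0.25, adjusted p = 2.55e-06 by edgeR). In wtATM it had 7.19 and 6.07 CPM against 23.6 and 23.9 CPM (-1.83 ± 0.15), in ATMINko 3.36 and 4.79 CPM against 10.99 and 11.99 CPM (-1.52 ± 0.17), and in wtATMIN 1.64 and 1.59 CPM against 5.66 and 7.10 CPM (-1.98 ± 0.22), APH before DMSO each time. In each line both APH libraries lay under both DMSO libraries.

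Hist1h2ap (chr13:21833026-21833507, - strand), whose transcript model ends at the stem-loop, behaved likewise. It had 9.44 and 5.01 CPM with APH against 19.7 and 24.1 CPM with DMSO in ATMko (log2 -1.55 ± 0.19, adjusted p = 2.26e-07 by edgeR), and 6.36 and 6.96 CPM with APH against 14.5 and 14.8 CPM with DMSO in wtATM (-1.14 ± 0.19). ATMINko had 3.54 and 3.60 CPM with APH against 19.3 and 19.3 CPM with DMSO (-2.44 ± 0.20), and wtATMIN 2.25 and 2.18 CPM with APH against 11.3 and 6.98 CPM with DMSO (-2.03 ± 0.23). The APH and DMSO libraries were apart in every line. Hist2h2aa1 moved little by comparison, with log2 changes of -0.61 in ATMko, -0.72 in wtATM and -0.49 in wtATMIN that did not pass the test and -0.99 ± 0.35 in ATMINko that did (adjusted p = 0.0451 by edgeR).

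**Figure D3:**
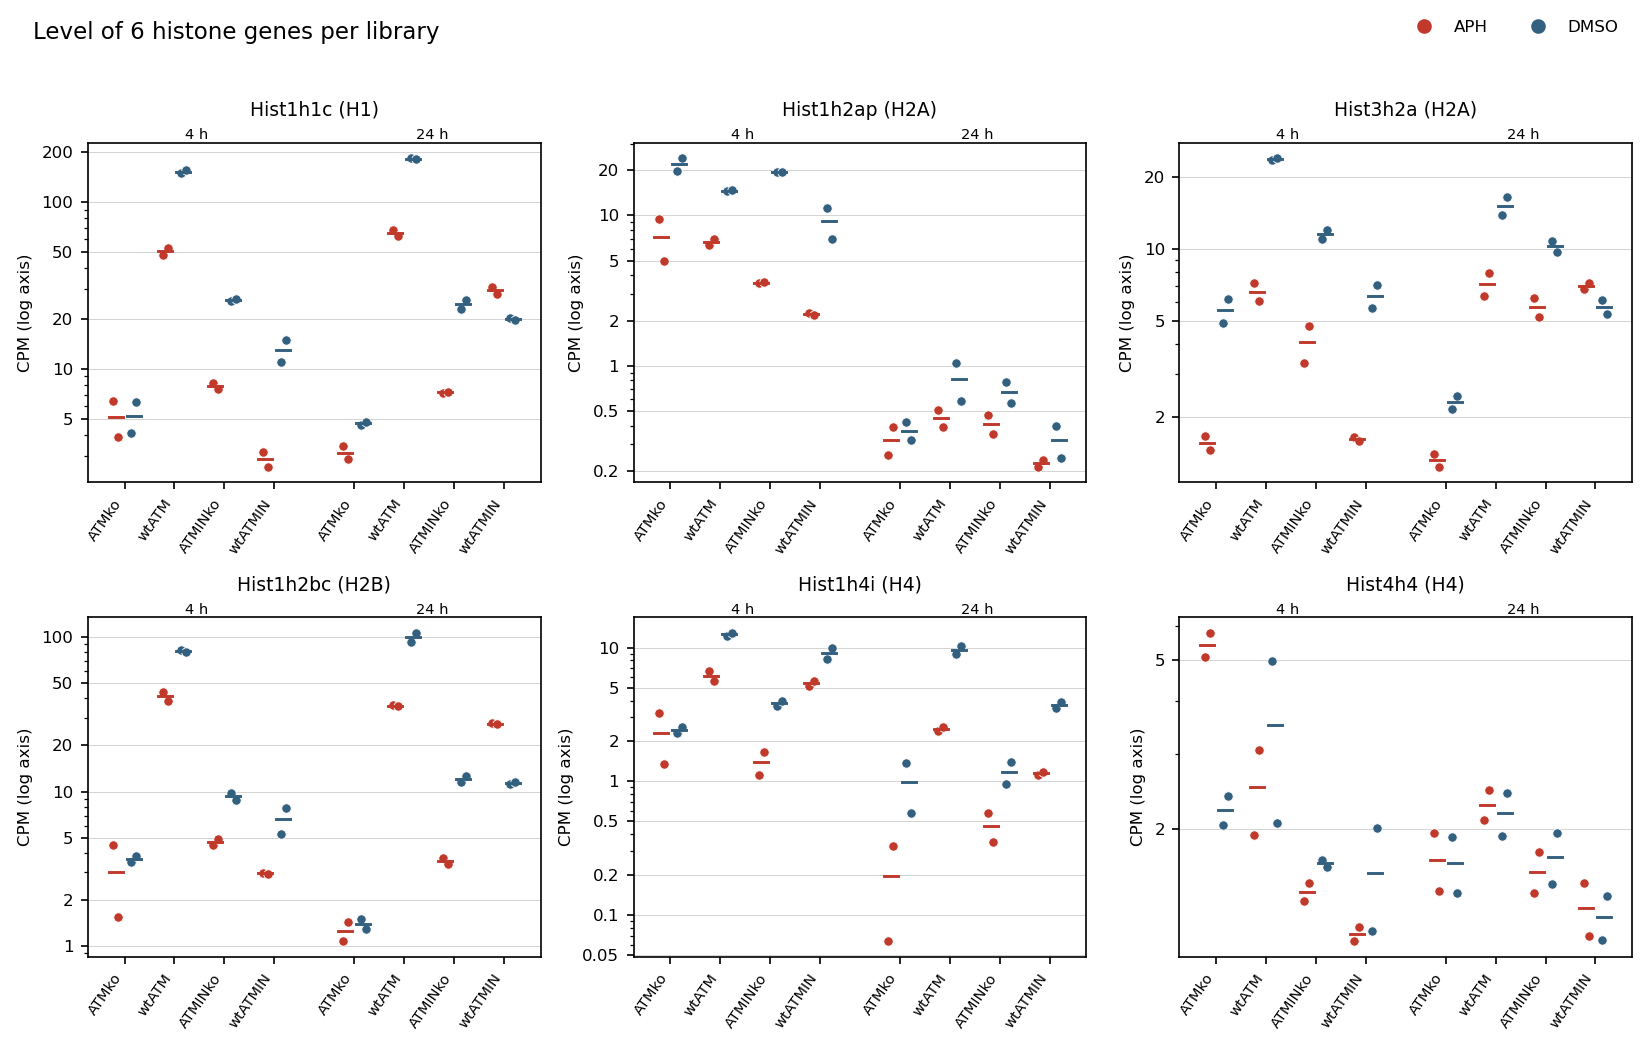
CPM (log axis) per library of Hist1h1c, Hist1h2ap, Hist3h2a, Hist1h2bc, Hist1h4i and Hist4h4 in the 4 lines at 4 h and 24 h; red points are APH, blue points DMSO, and bars the mean of 2 libraries. For Hist1h2ap and Hist3h2a the red points lie under the blue ones in all 4 lines at 4 h, and for Hist1h1c and Hist1h2bc the wtATM points lie over those of the other lines, with Hist1h2bc closest in APH at 24 h (36.1 and 35.4 CPM in wtATM, 27.7 and 27.1 CPM in wtATMIN).

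H2B genes were called in 3 of the lines at 4 h. Of 17 tested, 16 were lower in wtATM, 13 in ATMINko and 11 in wtATMIN (medians -1.28, -1.42 and -1.33), and in ATMko none was called in either direction at an adjusted p under 0.05, nor at an unadjusted one (edgeR, median -0.07). Without ATMko APH replicate 1, 5 H2B genes were lower there (median -0.91), and without replicate 2 none was called (0.38). Hist1h2bc (chr13:23684199-23692908, + strand) is among those known to make polyadenylated mRNA. It had 4.52 and 1.56 CPM with APH against 3.48 and 3.86 CPM with DMSO in ATMko (log2 -0.17 ± 0.26, adjusted p = 0.677 by edgeR). In wtATM it had 44.0 and 38.5 CPM with APH against 81.9 and 79.9 CPM with DMSO (-0.97 ± 0.11, adjusted p = 1.37e-07 by edgeR). ATMINko had 4.54 and 4.94 CPM against 9.75 and 8.83 CPM (-0.97 ± 0.18), and wtATMIN 2.98 and 2.94 CPM against 5.34 and 7.87 CPM (-1.16 ± 0.21), APH before DMSO. APH libraries were lower in 3 lines, and in ATMko 1 lay over and 1 under both DMSO libraries.

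H3 and H4 form the core tetramer of the nucleosome. Of 12 H3 genes 10 were lower in wtATM, 9 in ATMINko, 4 in wtATMIN and 1 in ATMko, with medians of -1.51, -1.39, -0.97 and -0.40. The 1 gene in ATMko was Hist2h3c2 (chr3:96238108-96239127, - strand), with 4.996 and 2.004 CPM with APH against 6.53 and 7.59 CPM with DMSO (log2 -0.93 ± 0.30, adjusted p = 0.0183 by edgeR). The H3 median in ATMko was -1.33 without APH replicate 1 and 0.05 without replicate 2. All members lower without replicate 2 encode H2A, as given below, so the call of Hist2h3c2 depends on that library. Of 13 H4 genes 11 were lower in wtATM, 8 in ATMINko and 7 in wtATMIN, with medians of -1.55, -1.68 and -1.24. In ATMko no H4 gene was lower and 2 were higher, Hist1h4a and Hist4h4 (median 0.31). Without ATMko APH replicate 1, 2 H4 genes were lower and 1 higher (median -0.54), and without replicate 2 none was lower and 4 were higher (0.78). Hist4h4 (chr6:136801553-136804415, - strand) had 5.08 and 5.79 CPM with APH against 2.051 and 2.396 CPM with DMSO in ATMko (log2 1.28 ± 0.29, adjusted p = 0.00107 by edgeR), with both APH libraries over both DMSO libraries, and it stayed called without either APH replicate (1.37 without replicate 1 and 1.19 without replicate 2). In wtATM its libraries overlapped, at 1.94 and 3.08 CPM with APH and 4.97 and 2.07 CPM with DMSO (-0.48 ± 0.30, adjusted p = 0.467 by edgeR). Hist4h4, Hist1h1a and the germ line gene Hist1h2ba were the 3 tested members lower in none of the lines at 4 h.

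The reach of the change in ATMko depended on which APH library was kept. Without APH replicate 1, the library rich in RNA without poly(A) tails, 30 members were lower and 1 higher (median -1.24, background 19.2% and 16.1%), among them 15 H2A, 7 H3 and 5 H2B genes. Without APH replicate 2, 8 were lower and 6 higher (median 0.18, background 6.09% and 6.46%), and all 8 lower genes encode H2A. H2A genes were thus called lower with either library, while the calls of the other types changed. The part of library content in this was not tested.

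**Figure D4:**
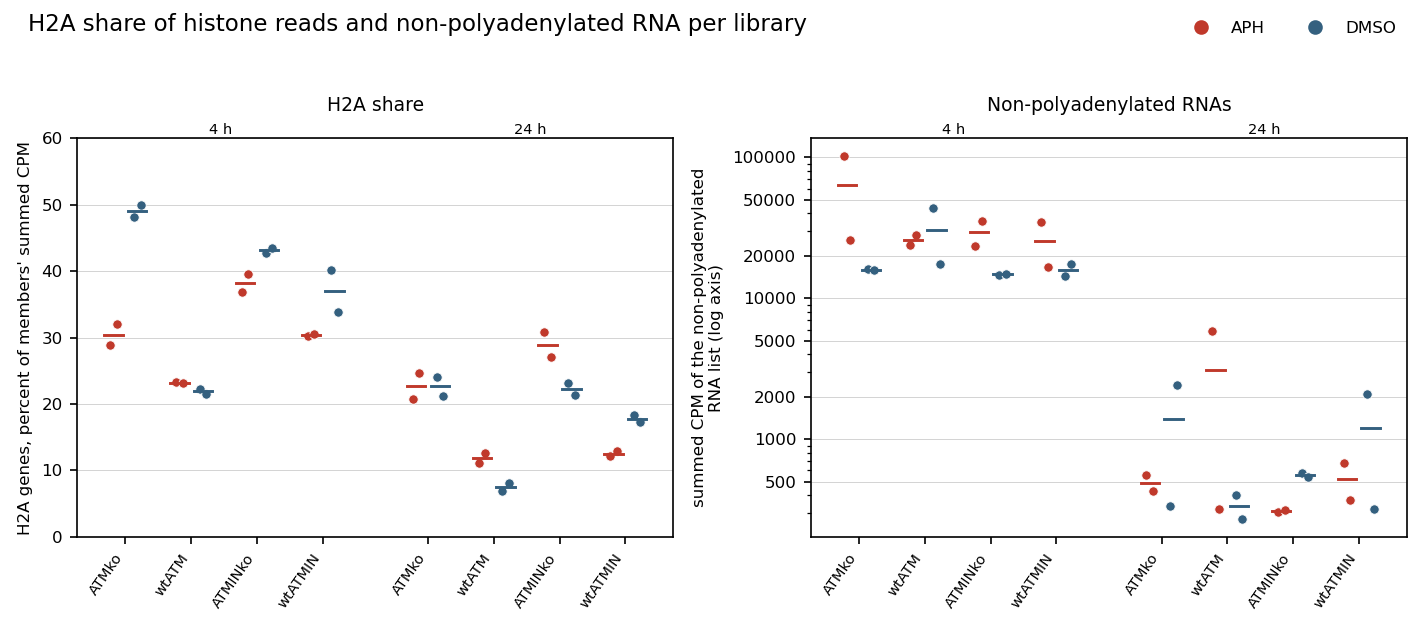
Left, share of H2A genes in the summed member CPM (percent) and right, summed CPM of RNAs without poly(A) tails (log axis), per library in the 4 lines at 4 h and 24 h; red points are APH, blue points DMSO and bars the mean of 2. In ATMko at 4 h the H2A share is 28.9% and 32.0% with APH against 48.1% and 49.9% with DMSO, and the APH points of the right panel lie at 101500 and 25810 CPM.

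A ratio within a library does not depend on its scaling, so the share of H2A in the member CPM was also read. It is a share of reads, not of molecules, since the genes differ in length. In ATMko at 4 h H2A took 28.9% and 32.0% with APH against 48.1% and 49.9% with DMSO, and H4 took 19.3% and 19.8% against 10.7% and 9.75%. In ATMINko H2A took 36.9% and 39.5% with APH against 42.8% and 43.5% with DMSO, and in wtATMIN 30.2% and 30.6% against 40.2% and 33.9%. In wtATM the shares were close, 23.3% and 23.1% with APH against 22.3% and 21.5% with DMSO. Both ATMko APH libraries thus held a lower H2A share than both DMSO libraries, by more than the replicates differed from each other.

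At 24 h the 4 lines went different ways, with fewer calls than at 4 h. In ATMko 9 of 65 tested members were lower with APH and none higher, in wtATM 16 and none, in ATMINko 21 and none, and in wtATMIN 1 was lower and 11 were higher (edgeR, adjusted p under 0.05). Of all genes tested 12.2%, 14.3%, 15.8% and 15.3% were called lower in the same order of lines, and 13.6% were called higher in wtATMIN. In either direction 27.9%, 28.7%, 30.2% and 28.8% were called. The members' median log2 change was -0.72 in ATMko, -0.62 in wtATM, -1.28 in ATMINko and 0.01 in wtATMIN, and the median over all genes lay within 0.03 of 0. The members' count of 9 in ATMko was near the background and those in wtATM and ATMINko were above it, while in wtATMIN the 11 higher members were near the background for higher calls. Many members had few reads by then: 16 of the tested members in ATMko, 19 in ATMINko, 7 in wtATMIN and 2 in wtATM had 1 to 3 reads in 1 of the groups compared, and 2 in ATMINko had none in 1 group.

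Summed member RNA at 24 h was 23.2 and 23.2 CPM with APH against 38.1 and 38.0 CPM with DMSO in ATMko, and 204.5 and 208.3 CPM against 441.8 and 467.5 CPM in wtATM. In ATMINko it was 36.7 and 36.7 CPM with APH against 86.9 and 91.8 CPM with DMSO. In wtATMIN it was 105.0 and 106.6 CPM with APH against 74.3 and 64.4 CPM with DMSO. APH libraries thus lay under DMSO libraries in 3 lines and over them in wtATMIN. Without Hist1h1c and Hist1h2bc the wtATMIN sum was 46.4 and 51.3 CPM with APH against 43.0 and 33.4 CPM with DMSO. Leaving out any 1 library of the line gave 4 calls in ATMko and 9 to 13 in ATMINko, 10 in wtATM without APH replicate 1, and 5 in wtATMIN without DMSO replicate 2 or without APH replicate 2, 4 of them higher in both cases.

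Among H1 genes at 24 h, Hist1h1c had 3.42 and 2.87 CPM with APH against 4.62 and 4.83 CPM with DMSO in ATMko (log2 -0.58 ± 0.22, adjusted p = 0.0407 by edgeR) and 68.2 and 63.0 CPM against 184 and 180 CPM in wtATM (-1.47 ± 0.10). In ATMINko it had 7.13 and 7.30 CPM with APH against 22.9 and 25.8 CPM with DMSO (-1.75 ± 0.14, adjusted p = 6.42e-12 by edgeR). In wtATMIN it was higher with APH, at 30.9 and 28.2 CPM against 20.1 and 19.5 CPM with DMSO (0.58 ± 0.11, adjusted p = 0.000179 by edgeR). The libraries of the 2 treatments were apart in every line, with wtATMIN in the opposite order.

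Among H2A genes at 24 h, 3 were lower in ATMko, 1 in wtATM and 3 in ATMINko, and 1 was higher in wtATMIN. Hist3h2a fell in 3 lines, with 1.395 and 1.239 CPM with APH against 2.16 and 2.45 CPM with DMSO in ATMko (log2 -0.80 ± 0.28, adjusted p = 0.0285 by edgeR), 6.37 and 7.94 CPM against 13.9 and 16.4 CPM in wtATM (-1.08 ± 0.15) and 6.24 and 5.18 CPM against 10.8 and 9.73 CPM in ATMINko (-0.84 ± 0.16). Its 6.84 and 7.21 CPM with APH in wtATMIN, against 6.15 and 5.35 CPM with DMSO, did not pass the test (0.28 ± 0.16, adjusted p = 0.213 by edgeR). Hist1h2ac (chr13:23681467-23683948, - strand, overlapping Gm24991 and Gm44350) was the H2A gene that was higher in wtATMIN, at 1.12 and 1.18 CPM with APH against 0.659 and 0.304 CPM with DMSO (1.17 ± 0.41, adjusted p = 0.0283 by edgeR). In ATMINko it was lower, at 0.367 and 0.471 CPM with APH against 1.19 and 1.77 CPM with DMSO (-1.81 ± 0.42).

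H2B held most of the calls at 24 h in wtATM, ATMINko and wtATMIN. Of 17 H2B genes 3 were lower in ATMko, 9 in wtATM and 11 in ATMINko, with medians of -1.12, -0.87 and -1.55, and 8 were higher in wtATMIN with a median of 0.97. Hist1h2bc had 36.1 and 35.4 CPM with APH against 92.4 and 106 CPM with DMSO in wtATM (log2 -1.47 ± 0.11, adjusted p = 2.3e-12 by edgeR) and 3.72 and 3.42 CPM against 11.5 and 12.6 CPM in ATMINko (-1.75 ± 0.18). In wtATMIN it had 27.7 and 27.1 CPM with APH against 11.2 and 11.5 CPM with DMSO, a log2 change of 1.27 ± 0.13 (adjusted p = 3.29e-09 by edgeR). In ATMko its 1.08 and 1.44 CPM with APH and 1.499 and 1.288 CPM with DMSO overlapped (-0.15 ± 0.36). Hist1h2bq showed the same pair of directions, with 0.420 and 0.648 CPM with APH against 1.31 and 1.58 CPM with DMSO in ATMINko (-1.44 ± 0.44) and 2.56 and 2.60 CPM against 1.05 and 0.669 CPM in wtATMIN (1.53 ± 0.34). H2B made up 47.6% and 48.8% of member CPM in wtATMIN with APH, against 33.6% and 34.6% with DMSO.

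H3 genes gave few calls at 24 h, 1 lower in wtATM, 2 in ATMINko and none in either direction in ATMko and wtATMIN (1 at an unadjusted p under 0.05 in each by edgeR, lower in ATMko and higher in wtATMIN). Among H4 genes Hist1h4i (chr13:22040636-22041362, - strand) was the member lower in all 4 lines at 24 h. It had 0.0634 and 0.326 CPM with APH against 1.38 and 0.580 CPM with DMSO in ATMko (log2 -2.32 ± 0.59, adjusted p = 0.00301 by edgeR) and 2.39 and 2.54 CPM against 9.02 and 10.3 CPM in wtATM (-1.97 ± 0.22). ATMINko had 0.577 and 0.353 CPM with APH against 0.9554 and 1.39 CPM with DMSO (-1.29 ± 0.45), and wtATMIN 1.12 and 1.18 CPM against 3.51 and 3.89 CPM (-1.67 ± 0.29). In wtATMIN it was the 1 member called lower, so that an H4 gene fell there while 8 H2B genes rose.

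Members lower at 4 h were partly those lower at 24 h. All 16 members lower at 24 h in wtATM were among the 55 lower at 4 h, as were 19 of the 21 in ATMINko (of 48 at 4 h) and 3 of the 9 in ATMko (of 15). With 55 and 48 of 65 tested members lower at 4 h in wtATM and ATMINko, most of any members drawn would overlap. The overlap over all genes was not counted, so these counts are not read as a trait of the members. The change of the APH response between the times, 24 h minus 4 h, was itself tested. In wtATMIN 22 members had a higher response at 24 h and none a lower one (median 1.22, background 9.12% higher), 13 of them H2B genes. Hist1h1c differed by 2.76 ± 0.21 (adjusted p = 8.82e-12), Hist1h2bc by 2.44 ± 0.25 and Hist3h2a by 2.26 ± 0.27 (edgeR, log2). In ATMko 5 members were lower at 24 h and 1 higher (median -0.56, background 9.89% and 12.1%), in wtATM 2 and 8 (0.88, 7.24% and 7.87%), and in ATMINko 1 and 5 (0.20, 10.3% and 10.8%). Without 1 library the ATMko count was 2 lower and 6 higher (APH 4 h replicate 1), 3 lower (DMSO 4 h replicate 2), 2 lower (DMSO 24 h replicate 1), 3 lower (DMSO 24 h replicate 2), 2 lower and 1 higher (APH 24 h replicate 1) or 1 lower (APH 24 h replicate 2). The wtATM count was 3 without DMSO 4 h replicate 1, 4 without APH 4 h replicate 1 and 5 without either APH 24 h library, all higher. The ATMINko count was 1 without DMSO 4 h replicate 2, APH 4 h replicate 1, DMSO 24 h replicate 2 or APH 24 h replicate 2, 2 without APH 24 h replicate 1, and 3 without APH 4 h replicate 2 or DMSO 24 h replicate 1. With library sizes alone in place of TMM scaling the ATMko count was 3 lower and 2 higher.

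The APH response of each knock-out was tested against that of its wild type. For ATMko minus wtATM at 4 h 27 of 65 members had a higher log2 response and none a lower one (median 1.19), where 6.02% of all genes tested were called higher and 5.35% lower. They comprised all 5 H1 genes (median 2.66), 9 of 17 H2B, 4 of 12 H3 and 9 of 13 H4 genes (medians 1.37, 1.18 and 1.97), and none of the 18 H2A genes at an adjusted or an unadjusted p under 0.05 (edgeR, median 0.14). Hist1h1a had no read in either wtATM APH 4 h library and 0.401 and 0.0648 CPM with DMSO there, so its difference rests on few reads. For Hist1h1d the difference was 2.74 ± 0.38 (adjusted p = 4.44e-05 by edgeR) and for Hist1h1c 1.63 ± 0.24, while for Hist3h2a it was 0.02 ± 0.40. Without ATMko APH 4 h replicate 1 the count was 9 higher and 3 lower (median 0.21), near or under the background of 11.1% higher and 13.9% lower, and the 3 lower members all encode H2A. Without replicate 2 it was 36 and none (background 2.1% and 1.33%), with the compared groups fitted alone it was 0, and DESeq2 gave 4. Without wtATM DMSO replicate 1 it was 7, without wtATM APH replicate 1 17, without wtATM APH replicate 2 13 and without ATMko DMSO replicate 2 12, all higher. Of the H1 genes 4 were still called without ATMko APH 4 h replicate 1. For ATMINko minus wtATMIN at 4 h no member was called (median -0.12, background 0.325% lower and 0.346% higher), with 3 lower and 1 higher at an unadjusted p under 0.05 by edgeR and none called by DESeq2.

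At 24 h the ATMINko response was lower than that of wtATMIN for 12 members and higher for none (median -1.41, background 1.42% lower). Of these 12, 8 encode H2B (Hist1h2bc, Hist1h2be, Hist1h2bf, Hist1h2bg, Hist1h2bh, Hist1h2bk, Hist1h2bq and Hist1h2br), and the others are Hist1h1c, Hist1h2ac, Hist2h3c1 and Hist3h2a. Hist1h2bc differed by -3.02 ± 0.22 (adjusted p = 3.21e-11 by edgeR), Hist1h1c by -2.33 ± 0.18 and Hist3h2a by -1.11 ± 0.23 (adjusted p = 0.00301 by edgeR). The count was 7 without wtATMIN DMSO replicate 2, wtATMIN APH replicate 2, or any 1 of 3 ATMINko libraries (DMSO replicate 1 and both APH replicates). For ATMko minus wtATM at 24 h 2 members were called, both higher (median -0.26, background 2.68% higher): Hist1h1c by 0.89 ± 0.24 (adjusted p = 0.0274) and Hist1h2bc by 1.32 ± 0.39 (adjusted p = 0.047), both by edgeR. Without any 1 of the 8 libraries that count was 0 or 1, and the 1 gene called without wtATM DMSO replicate 2 was lower.

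The knock-out lines were also set against their wild types within each treatment, APH 4 h and 24 h and DMSO 4 h and 24 h. Most H2B genes were lower in ATMko than in wtATM with DMSO at both times and with APH at 24 h. With DMSO 33 members were lower and 3 higher at 4 h (median log2 -0.78), and 41 and 1 at 24 h (-2.01), against a background of 27.9% lower and 27.3% higher at 4 h (55.2% in either direction) and 29.8% and 29.5% at 24 h (59.3%). With APH 13 were lower and 17 higher at 4 h (0.32, background 28.6% and 30.3%, 58.9% in either direction), and 43 and 1 at 24 h (-2.47, 29.9% and 31.5%, 61.3%). H2B made up 16 of the 33, 16 of the 41 and 16 of the 43 lower members, of 17 tested. With APH at 4 h the count was 22 lower and 4 higher without ATMko APH replicate 1, 6 and 33 without replicate 2, and 15 and 15 with library sizes alone.

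In all 4 of these comparisons 13 members were lower in ATMko: Hist1h1c, Hist1h2ac, Hist1h2ba, Hist1h2bc, Hist1h2be, Hist1h2bg, Hist1h2bh, Hist1h2bq, Hist1h4i, Hist2h2aa1, Hist2h2aa2, Hist2h2be and Hist3h2a. Each single comparison called 27.9% to 29.9% of all genes lower. The share of all genes lower in all 4 was not counted, so the 13 cannot be set against a background. The 13 are the members lower with APH at 4 h. The members' median log2 there was 0.32, -0.48 without ATMko APH replicate 1 and 0.78 without replicate 2. Fewer members were lower without replicate 2, as given above, so part of the list depends on that library. Hist1h1c differed by -4.88 ± 0.13 with DMSO at 4 h and -5.27 ± 0.13 at 24 h, and by -3.24 ± 0.15 and -4.38 ± 0.15 with APH at 4 h and 24 h (log2, largest adjusted p = 1.15e-19 by edgeR). Hist1h2bc differed by -4.46 ± 0.16, -6.14 ± 0.18, -3.66 ± 0.18 and -4.83 ± 0.20 in the same order. In wtATM with DMSO at 24 h Hist1h1c took 41.61% and 38.62% of all member reads and Hist1h2bc 20.92% and 22.67%. Per kilobase of the authors' gene length Hist1h2bc averaged 134.4 CPM and Hist1h1c 116.7 CPM in that group, against 17.94 CPM for Hist1h4i, while in ATMko with DMSO at 4 h Hist1h2ap had the highest level per kilobase, 42.11 CPM. A few single genes from lists of other cell types' markers were also higher in level in wtATM: the 5 epithelial markers summed to 0.1932 to 1.044 CPM in ATMko at 24 h against 160.9 to 240.9 CPM in wtATM at 24 h, through Krt14 and Krt5, with Epcam and Cldn4 at or near 0. Of the 5 blood markers Lyz2 alone was above 1 CPM in wtATM, the sum being 8.419 to 17.51 CPM there and 0.0 to 0.9133 CPM in the other 3 lines, and the 4 endothelial markers summed to 1.211 to 2.121 CPM and 0.06654 to 1.885 CPM. The 10 fibroblast markers summed to 7183 to 31730 CPM in the 3 other lines and 19200 to 23730 CPM in wtATM. Their part in the histone difference was not tested.

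Between ATMINko and wtATMIN the highest of the 4 counts came with APH at 24 h. With DMSO 4 members were lower in ATMINko and 15 higher at 4 h (median log2 0.13, background 23.0% and 21.9%, 44.9% in either direction), 9 of the 15 being H2A genes, and 3 were lower and 6 higher at 24 h (0.18, 26.2% and 23.4%, 49.6%). With APH 3 were lower and 7 higher at 4 h (0.06, 22.3% and 19.8%, 42.1%), and 26 were lower and 2 higher at 24 h (-1.17, 26.8% and 23.8%, 50.6%), 16 of the 26 being H2B genes. Hist1h2bc differed by -2.93 ± 0.16 with APH at 24 h (adjusted p = 3.39e-17 by edgeR). At DMSO 4 h the count of both directions was 10 without wtATMIN DMSO replicate 2 and 11 without ATMINko DMSO replicate 1, against 19. Leaving out 1 library brought the APH 4 h count to 5 without wtATMIN replicate 1 and 6 without ATMINko replicate 2, the DMSO 24 h count to 5 without ATMINko replicate 2, and the APH 24 h count to 18 without ATMINko replicate 1.

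Hist2h2be and Hist1h4i differed between ATMINko and wtATMIN in all 4 comparisons, in opposite directions. The share of all genes called alike in all 4 was not counted. Hist2h2be (chr3:96221119-96223738, + strand), an H2B gene known to make polyadenylated mRNA, had 7.11 and 7.90 CPM in ATMINko against 1.14 and 0.912 CPM in wtATMIN with DMSO at 24 h (log2 2.84 ± 0.23, adjusted p = 8.96e-13 by edgeR). With APH at 24 h it had 4.46 and 5.59 CPM in ATMINko against 1.28 and 1.06 CPM in wtATMIN (2.08 ± 0.24). At 4 h the differences were 2.25 ± 0.29 with DMSO and 1.59 ± 0.42 with APH, so that ATMINko was higher whatever the treatment or time. In ATMko the same gene was lower than in wtATM in all 4 comparisons, by log2 values of -2.57 and -1.20 with DMSO at 4 h and 24 h and -1.15 and -2.10 with APH. Hist1h4i was lower in both knock-outs: -2.38 and -3.27 with DMSO at 4 h and 24 h and -1.35 and -3.62 with APH in ATMko, and -1.25, -1.65, -1.99 and -1.27 in the same order in ATMINko.

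**Figure D5:**
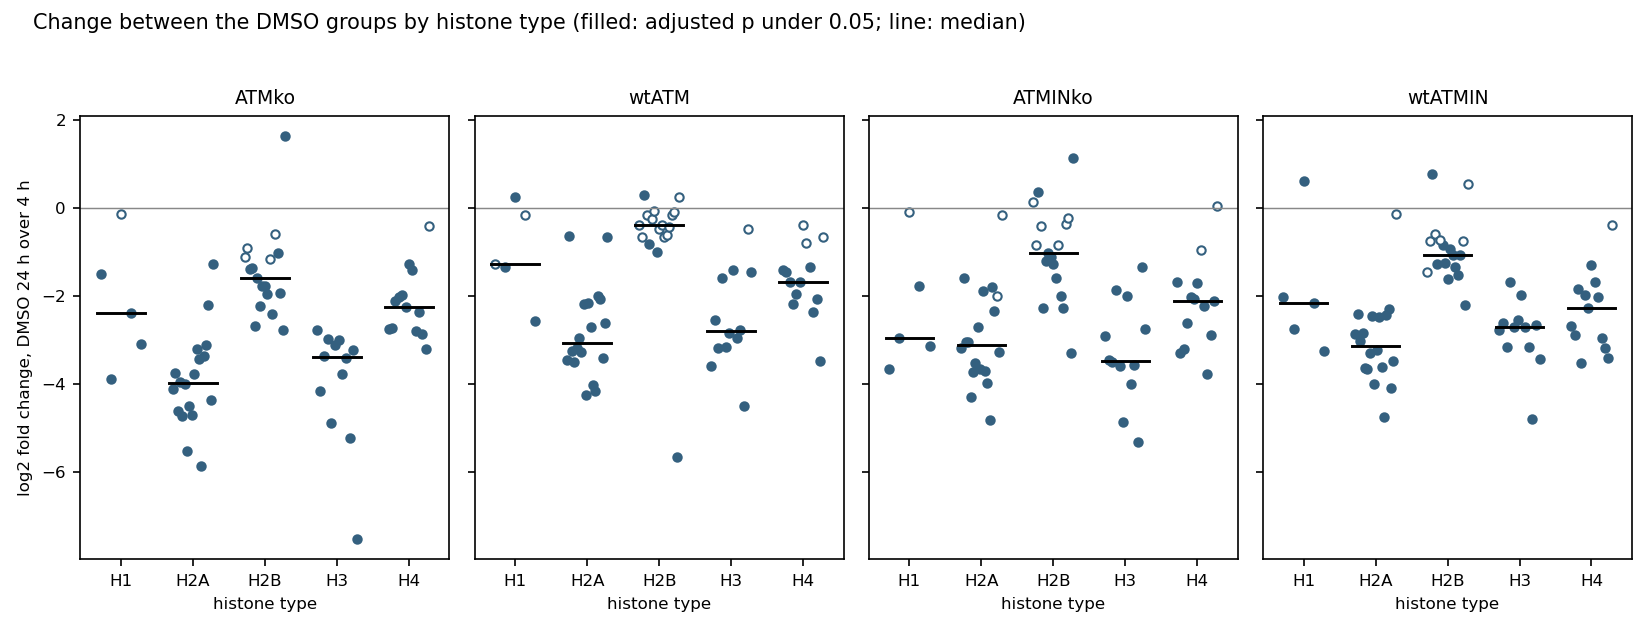
Log2 fold change of DMSO 24 h over DMSO 4 h for each tested member, by histone type and line; filled points have an adjusted p under 0.05 and lines mark the median of a type. H2A and H3 points lie mostly under -2, while the H2B points of wtATM lie near 0 (median -0.39).

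Histone RNA also differed between the DMSO samples of 24 h and 4 h. In ATMko 58 members were lower at 24 h and 1 higher (median log2 -2.76), in wtATM 44 and 2 (-1.68), in ATMINko 52 and 2 (-2.27) and in wtATMIN 55 and 2 (-2.43). The background was 24.1%, 23.3%, 23.8% and 26.3% lower and 24.6%, 23.1%, 23.4% and 29.1% higher, and the median over all genes 0.00 to 0.03. H2A fell with 18 of 18 genes in ATMko, 18 in wtATM, 16 in ATMINko and 17 in wtATMIN, and medians of -3.96, -3.07, -3.11 and -3.13. H3 fell with 12, 11, 12 and 12 of 12 genes and medians of -3.38, -2.80, -3.47 and -2.70. H2B fell with 12, 3, 9 and 10 of 17 genes and medians of -1.59, -0.39, -1.03 and -1.07.

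Hist1h2ap had 0.420 and 0.322 CPM at 24 h against 19.7 and 24.1 CPM at 4 h in ATMko (log2 -5.85 ± 0.29, adjusted p = 2e-17 by edgeR), and 1.05 and 0.581 CPM against 14.5 and 14.8 CPM in wtATM (-4.15 ± 0.26). In ATMINko it had 0.776 and 0.568 CPM against 19.3 and 19.3 CPM (-4.82 ± 0.27), and in wtATMIN 0.395 and 0.243 CPM against 11.3 and 6.98 CPM (-4.75 ± 0.32), 24 h before 4 h each time. Hist1h1c, in contrast, was slightly higher at 24 h in wtATM (0.26 ± 0.09, adjusted p = 0.0233 by edgeR) and wtATMIN (0.61 ± 0.13) and did not pass in ATMko (-0.13) and ATMINko (-0.09). Hist2h2be was higher at 24 h in ATMko (1.63 ± 0.29) and ATMINko (1.14 ± 0.19). RNAs without poly(A) tails were lower at 24 h as well, at 15.47 to 149.4 CPM in all 24 h libraries against 458.3 to 3584 CPM at 4 h with Gm42418 left out. The labels give no batch, and time and library content cannot be told apart.

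Genes on the list of members known in mammals to also make polyadenylated mRNA were looked at apart, 12 of 14 being tested. At 4 h of APH 3 were lower and 1 higher in ATMko, 9 and none in wtATM, 7 and none in ATMINko, and 7 and none in wtATMIN (medians -0.13, -1.21, -1.11 and -1.24). At 24 h 4 were lower in ATMko, 6 in wtATM and 8 in ATMINko, and 4 were higher in wtATMIN (medians -0.69, -0.66, -1.24 and 0.27). With DMSO 9, 6, 6 and 6 of the 12 were lower at 24 h than at 4 h in ATMko, wtATM, ATMINko and wtATMIN (medians -1.58, -0.65, -0.76 and -0.91). The shares of all genes called in these comparisons are given above. By annotated 3′ end, 4 of 20 genes that run past the stem-loop, 6 of 21 that end at it and 5 of 24 without a match were lower in ATMko at 4 h of APH. The same counts were 18, 18 and 19 in wtATM, 17, 14 and 17 in ATMINko, and 13, 12 and 16 in wtATMIN.

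Replication-independent histone variants were taken as a further list, in which H2afx stands although it is also expressed in S phase. Of 11 tested, 9 were lower in ATMko, 5 in wtATM, 7 in ATMINko and 6 in wtATMIN at 4 h and none was higher (medians -0.36, -0.27, -0.49 and -0.35). At 24 h 6, 6, 6 and 3 were lower and 1, 1, 0 and 1 higher in the same order (medians -0.25, -0.22, -0.30 and -0.15). Of all genes tested 15.4%, 2.76%, 10.9% and 7.75% were called lower at 4 h, and 12.2%, 14.3%, 15.8% and 15.3% at 24 h. Called higher were 14.0%, 2.82%, 9.48% and 7.25% at 4 h, and 15.7%, 14.4%, 14.3% and 13.6% at 24 h. H1f0, the H1 variant of resting cells, had 147 and 145 CPM with APH against 227 and 218 CPM with DMSO in wtATMIN at 24 h (log2 -0.61 ± 0.07, adjusted p = 1.07e-08 by edgeR), where Hist1h1c was higher with APH. H2afx, whose phosphorylated form marks damaged DNA, changed by -1.43 ± 0.11 in ATMko, -0.69 ± 0.09 in wtATM, -0.82 ± 0.09 in ATMINko and -1.08 ± 0.09 in wtATMIN at 4 h. Cenpa, the centromeric H3 variant, changed by -0.77 ± 0.08, -0.94 ± 0.08, -1.18 ± 0.07 and -1.09 ± 0.07 in the same order at 4 h, and by 0.32 ± 0.07 in wtATMIN at 24 h (adjusted p = 0.000367 by edgeR).

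Factors that supply or process histone mRNA were called in both directions. Of 37 tested at 4 h, 6 were lower and 10 higher in ATMko, 2 and 2 in wtATM, 5 and 9 in ATMINko, and 3 and 12 in wtATMIN (medians -0.05, -0.02, 0.07 and 0.04). Of all genes tested 15.4%, 2.76%, 10.9% and 7.75% were called lower and 14.0%, 2.82%, 9.48% and 7.25% higher, in the same order. The counts of lower factors were near these shares in ATMko, ATMINko and wtATMIN. Slbp had 70.3 and 69.4 CPM with APH against 57.9 and 61.4 CPM with DMSO in ATMko (log2 0.23 ± 0.08, adjusted p = 0.0358 by edgeR) and changed by 0.12 ± 0.08 in wtATM, which did not pass, 0.49 ± 0.08 in ATMINko and 0.32 ± 0.08 in wtATMIN. Npat changed by 0.89 ± 0.12 in ATMko and 0.37 ± 0.11 in wtATMIN, and by 0.19 ± 0.12 in wtATM and 0.18 ± 0.11 in ATMINko, which did not pass. The cyclin gene Ccne1, whose product activates CDK2 at the start of S phase, rose in all 4 lines by 0.59 ± 0.07, 0.92 ± 0.08, 1.6 ± 0.08 and 1.14 ± 0.08 (ATMko, wtATM, ATMINko, wtATMIN). Of 36 replication genes 15, 4, 26 and 23 were higher at 4 h and 4, 0, 0 and 0 lower (medians 0.14, 0.04, 0.32 and 0.25). At 24 h 11, 3, 18 and 6 were higher and 4, 19, 3 and 15 lower, so that wtATM and wtATMIN had more lower than higher calls. The shares of all genes at 24 h were 15.7%, 14.4%, 14.3% and 13.6% higher and 12.2%, 14.3%, 15.8% and 15.3% lower.

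Over the 16 group means the non-member genes most like the summed members in log2 CPM were Gm20634 (Pearson r = 0.944), Gm20632 (0.894) and Gm20633 (0.886). These 3 lie over Hist2 genes, and with the strand setting of the counting not given their reads cannot be told from those of the histone genes. The next were Atp5g2 (0.853) and Leprel4 (0.851).

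In the authors' deposited tables the members called at an adjusted p under 0.05 were counted as well. The authors' deposited tables of ATM knock-out against wild type held 30 lower and 2 higher members with DMSO at 4 h, 39 and 1 with DMSO at 24 h, 7 and 9 with APH at 4 h, and 29 and 1 with APH at 24 h. For ATMIN knock-out against wild type the authors' deposited tables held 1 and 11 with DMSO at 4 h, 1 and 5 with DMSO at 24 h, 2 and 2 with APH at 4 h, and 17 and 1 with APH at 24 h. For APH against DMSO in wtATMIN the authors' deposited tables held 7 and none at 4 h and 1 and 5 at 24 h. Only 7 of 65 listed members carried an adjusted p there at 4 h, and 20 of 62 at 24 h. For ATMIN knock-out against wild type 65 of 66 carried one with DMSO at 4 h and 37 of 60 at 24 h. With APH 59 of 65 did at 4 h and 30 of 51 at 24 h. For ATM knock-out against wild type it was 65 of 66, 62 of 63, 64 of 64 and 52 of 57 in the same order. The share of all genes called in these tables was not counted.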

How the data were processed

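RNA of mouse embryonic fibroblasts was sequenced in 32 libraries, 16 groups of 2. The deposited table holds raw read counts per gene; Bowtie2 2.4.0, TopHat2 2.0.13, DESeq2 1.6.3 and mm10 are named in the submitters' processing notes, and the counting tool, strand setting and annotation release are not given in the sources used here. The 10 tables of the authors' own comparisons give log2 fold changes and adjusted p-values, per the file headers; their member calls, gene lengths and 16476 gene symbols were used (21380 further symbols came from GENCODE M21), and 120 single-sample and 60 group-mean columns were not. Column names AT and UT were read as APH and DMSO, and pos and neg as wild type and knock-out.

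Counts were fitted with edgeR 4.0.16 (R 4.3.3; TMM scaling, filterByExpr minimum count 10, quasi-likelihood test) over all 32 libraries, with 28 comparisons and Benjamini-Hochberg adjustment over the 18484 genes tested in each; the threshold was 0.05. Errors beside log2 values are standard errors. CPM are counts scaled to a common library size after TMM. Total counts were 9321329 to 21020662 per library, and low member counts limit precision. Nothing says that the 2 samples of a group came from separate cultures, so p-values measure the spread between these samples, which may be technical. No 2 libraries were identical. Same-numbered replicates did not deviate together (median r = 0.00642 over 120 pairs of groups), so the numbers were not used as pairs. Alternatives tried were DESeq2 1.42.0, no filter on low counts, scaling by RLE or by library size only, a replicate block, a fit of the compared groups alone, and each library left out. The code was tested on simulated data.

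The members and lists were chosen with earlier results of these data known. Genes named are, per histone type, the 3 with the highest mean level and those with the largest and smallest mean APH change, per knock-out and per difference of responses up to 3 called members with the smallest p, up to 4 genes of each other list, Npat, Slbp, H2afx, H1f0, Gm42418 and the members known to make polyadenylated mRNA. Other genes named, such as Hist1h2ac, Hist1h2bq and the members of short call lists, were chosen after their values were seen.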

Additional observations from a re-analysis of the deposited data

Results flagged for a closer look

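These are differences between APH responses that passed edgeR's test of the difference itself, as log2 values. ATMko minus wtATM called 27 of 65 members at 4 h (11.4% of all genes were called; DESeq2 gave 4 members and the compared groups alone 0), with Hist1h1d at 2.74, Hist1h1c at 1.63 and Hist1h1b at 2.66, and 2 members at 24 h, near the 3.92% of all genes, Hist1h1c at 0.89 and Hist1h2bc at 1.32. ATMINko minus wtATMIN called 12 members at 24 h (2.43% of all genes), with Hist1h2bc at -3.02, Hist1h1c at -2.33 and Hist1h2br at -2.91.

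The response at 24 h minus that at 4 h called 6 members in ATMko, fewer than the 22.0% of all genes, with Hist1h4i at -2.33, Hist1h2bk at -2.92 (3 reads in its APH 24 h libraries together) and Hist1h2ai at 1.76. It called 10 members in wtATM, close to the 15.1% of all genes, with Hist2h4 at 3.64, Hist1h3d at 1.53 and Hist1h1d at 1.18. In ATMINko it called 6, fewer than the 21.1% of all genes, with Hist1h2af at 2.30, Hist1h2ai at 1.42 and Hist1h2bc at -0.77. In wtATMIN it called 22 (18.6% of all genes), with Hist1h1c at 2.76, Hist1h2bc at 2.44 and Hist3h2a at 2.26.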

How the results depend on the processing

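Counts below are members called in either direction. With the compared groups alone they were 10 for APH in ATMko at 4 h, 5 at 24 h, 0 for ATMko minus wtATM at 4 h and 0 for 24 h minus 4 h in ATMko. With DESeq2 they were 8 for ATMINko against wtATMIN with DMSO at 4 h, 4 for ATMko minus wtATM at 4 h, and 4, 2 and 3 for 24 h minus 4 h in wtATM, ATMko and ATMINko. ATMko minus wtATM at 24 h gave 1 with RLE, 4 without the filter and 1 with the replicate block, which moved no other count of members by over 1.5 times. The calls among RNAs without poly(A) tails turned to more lower than higher without the filter (65) and with the compared groups alone (12).

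Leaving out 1 library gave, for APH at 4 h, 10 to 31 in ATMko, 26 to 55 in wtATM, 28 to 40 in ATMINko and 20 to 36 in wtATMIN, and at 24 h 4 to 4, 10 to 14, 9 to 13 and 5 to 9. ATMko against wtATM gave 28 to 40 and 39 to 42 with DMSO at 4 h and 24 h, and 22 to 39 and 35 to 39 with APH; it was 26, mostly lower, without ATMko APH 4 h replicate 1. ATMINko against wtATMIN gave 10 to 15, 5 to 7, 5 to 7 and 18 to 21 in the same order of DMSO 4 h, DMSO 24 h, APH 4 h and APH 24 h. ATMko minus wtATM gave 7 to 36 at 4 h and 0 to 1 at 24 h, and ATMINko minus wtATMIN 7 to 9 at 24 h. The change between times gave 1 to 8 in ATMko, 3 to 12 in wtATM, 1 to 4 in ATMINko and 16 to 22 in wtATMIN, with 8, mostly higher, in ATMko without APH 4 h replicate 1. RNAs without poly(A) tails gave 14 to 21 calls. Hist1h2bq in ATMko minus wtATM at 4 h ran from -0.15 without ATMko APH 4 h replicate 1 (adjusted p = 0.919 by edgeR) to 1.94 without replicate 2.

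With library size only, summed member CPM were 23.1 and 37 in ATMko at 24 h (APH, DMSO), 228 and 215 in wtATM with APH at 4 h and 24 h, 222 in ATMINko with DMSO at 4 h, 40.6 and 93 in ATMINko at 24 h (APH, DMSO) and 122 in wtATMIN with APH at 24 h. With RLE they were 23 and 37.9 in ATMko at 24 h (APH, DMSO), 242 in wtATM with APH at 4 h and 36.5 in ATMINko with APH at 24 h. The cause of these changes was not tested. Library size only shifted the median of all genes by 0.12 in ATMINko and 0.13 in wtATMIN for DMSO 24 h against 4 h.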
